A study of Mus musculus with 6 samples.

Results

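The proteasome is the barrel-shaped protease that degrades proteins tagged with ubiquitin, and its subunit genes were followed here in mouse hippocampus. They were taken as every row of the gene tables whose name begins with Psma, Psmb, Psmc, Psmd, Psme, Psmf or Psmg, which gave 47 of 15639 rows. Of the 47 rows 46 encode subunits, activators, inhibitors or assembly factors of the proteasome. The remaining row, Psmc3ip, shares only the prefix and encodes a factor of meiotic recombination. The study sequenced 3 libraries labelled APP/PS1, from mice that carry the transgenes APP695swe and PS1-dE9, and 3 labelled WT, from wild-type control mice. All 6 came from hippocampus at 6 months of age with no treatment named. The labels give neither strain, sex and transgene promoter nor whether each library is 1 animal, so the p-values reflect the scatter of these libraries alone, and that scatter could be technical.

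The catalytic core of the proteasome, the 20S particle, is built from stacked rings of alpha and beta subunits. The alpha rings gate the entry, and the beta rings carry the proteolytic sites, which are Psmb5 (chymotrypsin-like), Psmb6 (caspase-like) and Psmb7 (trypsin-like). The 19S cap binds ubiquitin chains, removes them and unfolds the substrate with a ring of ATPases encoded by the Psmc genes. In immune cells and after interferon the inducible subunits Psmb8, Psmb9 and Psmb10 replace Psmb5, Psmb6 and Psmb7. Neurons rely on the proteasome to turn over synaptic and misfolded proteins, and its function in amyloid models is a long-standing question in the field.

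App and Prnp did not follow the labels in 2 libraries, and App reads of the transgene and of the mouse gene were not told apart here. App, the amyloid precursor protein gene, had 153.1, 71.01 and 166.2 FPKM in APP/PS1 replicates 1 to 3 and 69.8, 68.5 and 145.6 FPKM in WT replicates 1 to 3. Prnp, the prion protein gene, which split the libraries in the same way, had 471.6, 198.6 and 463.8 FPKM in APP/PS1 replicates 1 to 3 and 188.1, 181.5 and 457.2 FPKM in WT replicates 1 to 3. The library labelled APP/PS1 replicate 2 thus lay at the low level of both genes and the library labelled WT replicate 3 at the high level, and results are also given without these 2. The hippocampal markers Prox1, Wfs1, Fibcd1, Neurod6, Zbtb20 and Spink8 were all listed, with summed levels of 154.7 to 167.1 FPKM with the APP/PS1 label and 168.1 to 173.7 FPKM with the WT label. FPKM (fragments per kilobase of transcript, scaled to library size) divides by transcript length, so levels of different genes can be set side by side only roughly. Reads split between similar copies or overlapping genes also bear on such levels. The FPKM totals of the libraries ran from 182355 to 185217, and the read depth behind them is unknown.

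Promoters were taken from RefSeq (GRCm38.p6, 250 bases before to 50 bases after the start) to show what the sequences of the genes share. Of the 46 proteasome genes 39 had an entry, with 42 promoters in all, and Psmb1, Psmb2, Psmb7, Psmc3, Psmd3, Psmd7 and Psmg2 had none. The promoters of 2 constitutive catalytic genes, Psmb5 and Psmb6, and of 2 inducible genes, Psmb8 and Psmb10, are shown because the clearest contrast in level and the lowest p-value of the family lie among these subunits. Capitals mark the core TGACNNNGC of the antioxidant response element in Psmb5 and Psmb6, the motif TATAAA in Psmb8 and the E box CACGTG in Psmb10. All run 5′ to 3′ on the strand of the gene.
Psmb5 (chr14:54617946-54618245, minus strand): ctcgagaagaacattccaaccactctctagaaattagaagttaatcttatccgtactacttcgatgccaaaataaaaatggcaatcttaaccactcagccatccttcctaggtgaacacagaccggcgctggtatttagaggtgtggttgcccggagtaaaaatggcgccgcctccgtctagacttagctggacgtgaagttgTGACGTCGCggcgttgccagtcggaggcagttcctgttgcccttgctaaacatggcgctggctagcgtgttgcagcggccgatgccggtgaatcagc
Psmb6 (chr11:70525107-70525406, plus strand): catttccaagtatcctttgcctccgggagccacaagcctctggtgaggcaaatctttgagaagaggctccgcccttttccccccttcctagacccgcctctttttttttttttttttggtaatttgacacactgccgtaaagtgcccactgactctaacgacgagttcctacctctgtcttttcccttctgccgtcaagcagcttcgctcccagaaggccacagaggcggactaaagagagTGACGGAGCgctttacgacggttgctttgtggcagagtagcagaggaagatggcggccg
Psmb8 (chr17:34197945-34198244, plus strand): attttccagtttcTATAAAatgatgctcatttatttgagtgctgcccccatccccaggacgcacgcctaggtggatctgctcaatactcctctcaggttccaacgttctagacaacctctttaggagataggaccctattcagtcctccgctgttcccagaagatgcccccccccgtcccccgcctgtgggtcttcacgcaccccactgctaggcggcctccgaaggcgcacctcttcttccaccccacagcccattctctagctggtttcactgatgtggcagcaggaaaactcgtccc
Psmb10 (chr8:105938343-105938642, minus strand): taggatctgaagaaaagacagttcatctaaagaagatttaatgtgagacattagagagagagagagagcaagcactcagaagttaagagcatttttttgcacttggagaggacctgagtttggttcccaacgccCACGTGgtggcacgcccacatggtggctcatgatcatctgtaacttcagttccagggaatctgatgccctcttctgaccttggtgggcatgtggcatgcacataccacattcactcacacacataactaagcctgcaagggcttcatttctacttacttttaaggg
The antioxidant response element is known from human and mouse cells as the site through which the transcription factor encoded by Nfe2l1 raises proteasome genes. Its core began at position -47 from the start in Psmb5 and at position -9 in Psmb6. The TATAAA of Psmb8 began at position -237 and the E box of Psmb10 at position -116. Each of the 4 promoters held 1 match of the motif in capitals, and Psmb6 also held a separate GC box at position -182. Over the family the core TGACNNNGC stood in 6 of 42 promoters (14.3%), close to the 12.4% of all 32851 promoters in the table. The ETS motif CCGGAAGT stood in 10 of 42 promoters (23.8%), against 3.9% of all promoters. The GC box GGGCGG stood in 23 (54.8%, against 35.7%). The interferon response core GAAANNGAA stood in 7 (16.7%, against 8.6%), among them Psme1 but neither Psmb8 nor Psmb10. CCAAT stood in 12 (28.6%, against 37.4%), CACGTG in 4 (9.5%, against 7.2%), TATAAA in 4 (9.5%, against 13.6%) and the heat shock core TTCNNGAA in 2 (4.8%, against 8.5%). A gene with more than 1 promoter was counted once for each promoter with a match, as was Psmc2 for the ETS motif. These 8 motifs were searched on both strands, a promoter could hold several that overlap, and a match is a description of the letters and no evidence of binding.

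Proteasome mRNAs were plentiful in every library. The 44 genes that passed the filter on low values (1 FPKM or more in 3 or more libraries) had a median level of 14.85 FPKM, against 5.47 FPKM over all 13700 genes that passed it. The 47 rows together made up a share of all FPKM of 0.412%, 0.401% and 0.387% in APP/PS1 replicates 1 to 3 and 0.402%, 0.405% and 0.425% in WT replicates 1 to 3. These shares overlapped between the labels, the highest and the lowest both being in libraries with high App.

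**Figure D1:**
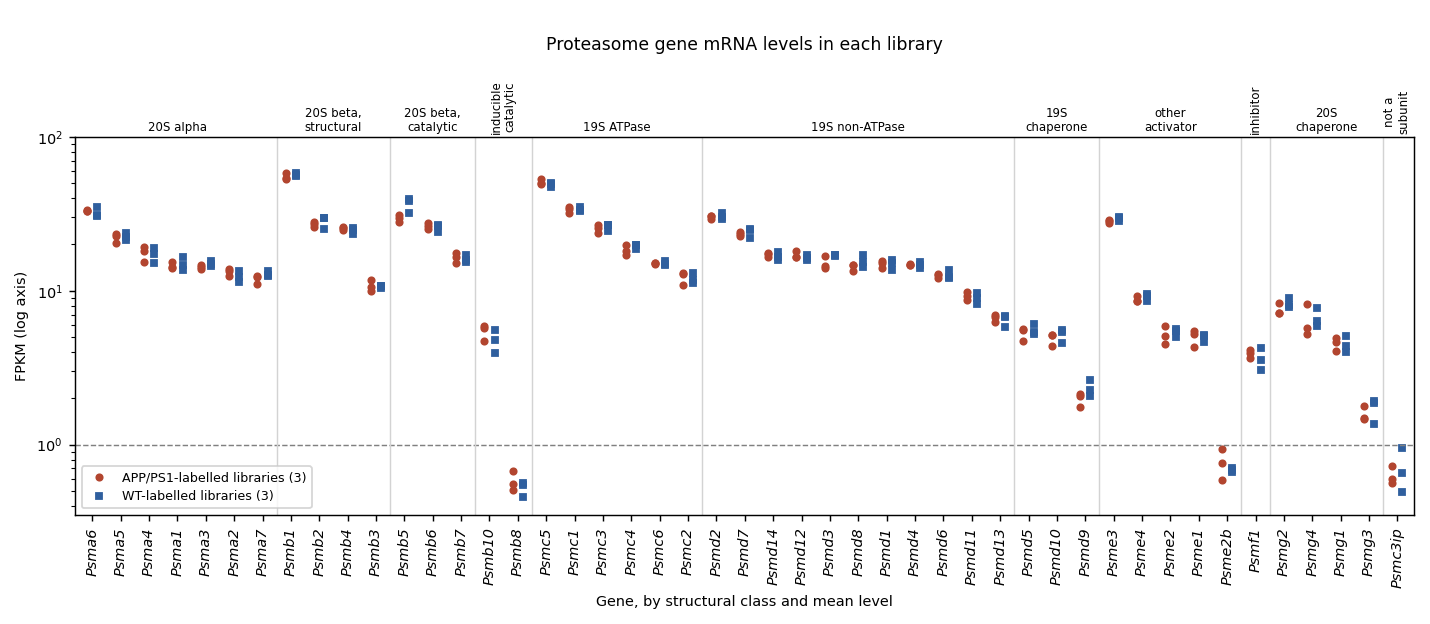
FPKM on a log axis for each of the 47 rows, ordered by structural class and by mean level within the class; circles are the 3 APP/PS1-labelled libraries and squares the 3 WT-labelled libraries, and the dashed line marks 1 FPKM. The symbols of both labels overlap for all rows but Psmb5 and Psmd3, and Psmb8, Psme2b and Psmc3ip lie under the line.

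The alpha ring was represented by 7 genes, Psma1 to Psma7, which enter each core particle in equal number. Their mean levels over the 6 libraries nevertheless ranged from 12.4 FPKM (Psma7) to 32.7 FPKM (Psma6), a ratio of 2.63. Psma6 had 33.1, 33.02 and 33.2 FPKM in APP/PS1 replicates 1 to 3 and 30.5, 31.2 and 35.005 FPKM in WT replicates 1 to 3. Psma7 had 12.5, 10.998 and 12.3 FPKM in APP/PS1 replicates 1 to 3 and 13.4, 12.5 and 12.7 FPKM in WT replicates 1 to 3. Psma3, whose gene also gave a circular RNA, had 14.3, 13.8 and 14.7 FPKM in APP/PS1 replicates 1 to 3 and 14.9, 14.5 and 15.5 FPKM in WT replicates 1 to 3. In the alpha ring 3 log2 fold changes were positive and 4 negative, with a median of -0.03, and the libraries of the labels overlapped for all 7 genes. The testis subunit Psma8 had no row and was not analysed here.

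In the beta ring, the structural subunit Psmb1 had the highest mean level of the family, with 58.1, 52.8 and 53.9 FPKM in APP/PS1 replicates 1 to 3 and 55.8, 56.8 and 58.5 FPKM in WT replicates 1 to 3. Psmb3, the lowest of the 4 structural genes, had 11.7, 10.6 and 9.93 FPKM in APP/PS1 replicates 1 to 3 and 10.8, 10.4 and 10.8 FPKM in WT replicates 1 to 3. The ratio of Psmb1 to Psmb3 was 5.23 by mean level, although each core particle holds them in equal number.

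Among the constitutive catalytic genes Psmb5 stood lower in the APP/PS1-labelled libraries, but not past the threshold over all genes. Psmb5 had 29.8, 30.9 and 28.04 FPKM in APP/PS1 replicates 1 to 3 and 31.8, 39.4 and 38.1 FPKM in WT replicates 1 to 3. The labels did not overlap, though WT replicate 1 lay within 1 FPKM of the highest APP/PS1-labelled library. The means were 29.6 ± 1.45 FPKM in the APP/PS1-labelled and 36.4 ± 4.08 FPKM in the WT-labelled libraries (SD, n = 3 each), a log2 fold change of -0.29 ± 0.09 (SE) by limma (unadjusted p = 0.0118, adjusted p = 0.632). Fold changes are APP/PS1 over WT on the log2(FPKM + 1) scale, which understates the change of low genes, and in bulk tissue fewer cells of a type and less RNA per cell cannot be told apart. The other 2 catalytic genes showed no such order. Psmb6 had 27.5, 25.2 and 26.2 FPKM in APP/PS1 replicates 1 to 3 and 26.4, 23.99 and 26.8 FPKM in WT replicates 1 to 3, with a log2 fold change of 0.03 ± 0.06 (SE) by limma (unadjusted p = 0.634, adjusted p = 0.961). Psmb7 had 17.7, 16.4 and 15.1 FPKM in APP/PS1 replicates 1 to 3 and 15.9, 15.3 and 17.2 FPKM in WT replicates 1 to 3, with a log2 fold change of 0.03 ± 0.07 (SE) by limma (unadjusted p = 0.716, adjusted p = 0.974). The small positive values of Psmb6 and Psmb7 turned negative without the library labelled WT replicate 2 or without APP/PS1 replicate 1, so neither has a direction.

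The share of Psmb5 in the summed FPKM of Psmb5, Psmb6 and Psmb7 was 39.8%, 42.6% and 40.4% in APP/PS1 replicates 1 to 3 and 42.9%, 50.1% and 46.5% in WT replicates 1 to 3. APP/PS1 replicate 2 and WT replicate 1 were nearly equal on this measure, and WT replicates 2 and 3 were the libraries that stood high. Without WT replicate 3 and APP/PS1 replicate 2 the log2 fold change of Psmb5 was -0.28, with an unadjusted p = 0.0509 by limma (adjusted p = 0.548). Over all 15 alternatives it stayed between -0.38 and -0.23, with an adjusted p between 0.224 and 0.9995. RefSeq names a pseudogene copy of Psmb5, and of Psmb6, Psmb7 and Psma5 as well, so reads of these genes could have been split between copies. By the GRCm38.p6 annotation 14 members overlap another gene, and reads in such stretches could have gone to either. Several lists of cell type markers leaned one way between the labels. The 6 hippocampal principal cell markers named above all had a negative log2 fold change (median -0.10, 0 with an unadjusted p under 0.05 by limma), and their sums did not overlap between the labels. The 4 oligodendrocyte markers reported here, Mbp, Mog, Mag and Opalin, all had a positive one (median 0.31, 3 with an unadjusted p under 0.05), and their sums, 104 to 136.1 FPKM with the APP/PS1 label and 76.8 to 109.7 FPKM with the WT label, overlapped. The 4 choroid plexus markers were all positive too (median 0.30), and of them Folr1 and Kcne2 had an unadjusted p under 0.05 by limma. Their sums, 1075 to 1350 FPKM with the APP/PS1 label and 826.2 to 1171 FPKM with the WT label, overlapped. The 4 leptomeningeal fibroblast markers were all negative (median -0.16, 0 with an unadjusted p under 0.05) and the 4 endothelial markers all positive (median 0.03, 0 with an unadjusted p under 0.05), with overlapping sums. Neuron markers were 3 positive and 3 negative (1 of each with an unadjusted p under 0.05), and astrocyte markers 3 positive and 2 negative. Of all 13700 tested genes, 2.85% were higher and 3.83% lower at an unadjusted p under 0.05 by limma. None of the markers in these lists was listed at 0, and 0 passed an adjusted p of 0.05. Their part in the Psmb5 values was not tested.

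**Figure D2:**
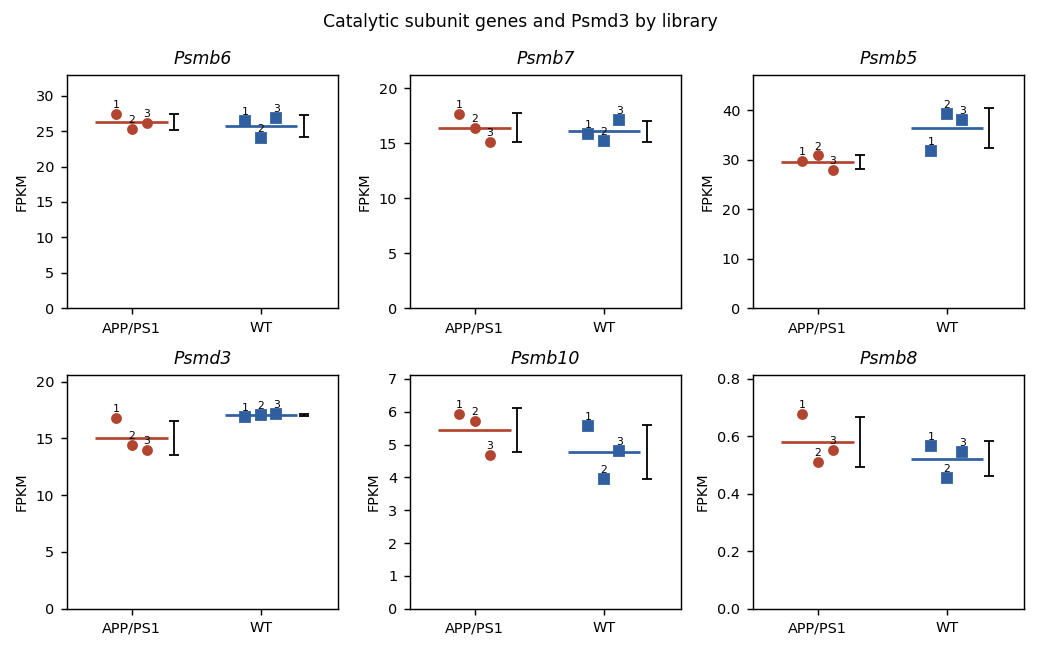
FPKM of the catalytic genes Psmb6, Psmb7, Psmb5, Psmb10 and Psmb8 and of the cap gene Psmd3 in each library (numbers are replicates), with the mean as a coloured line and the SD over 3 libraries as a black bar. Psmb5 and Psmd3 are the genes whose labels do not overlap, with Psmb5 at 28.04 to 30.9 FPKM under the APP/PS1 label and 31.8 to 39.4 FPKM under the WT label.

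The inducible subunits Psmb10 and Psmb8 stood below their constitutive counterparts in every library, Psmb8 far more so than Psmb10. Psmb10 had 5.93, 5.73 and 4.69 FPKM in APP/PS1 replicates 1 to 3 and 5.58, 3.95 and 4.81 FPKM in WT replicates 1 to 3. This corresponded to 33.5%, 34.8% and 30.98% in APP/PS1 replicates 1 to 3 and 35.1%, 25.9% and 28.03% in WT replicates 1 to 3, as a share of the level of Psmb7, the subunit it replaces. Its log2 fold change was 0.16 ± 0.12 (SE) by limma (unadjusted p = 0.224, adjusted p = 0.877), with overlapping labels. With single libraries left out it ran from 0.06, without WT replicate 2, to 0.26, without WT replicate 1. Psmb8 lay under the filter and had 0.678, 0.509 and 0.553 FPKM in APP/PS1 replicates 1 to 3 and 0.566, 0.454 and 0.546 FPKM in WT replicates 1 to 3. Relative to Psmb5, which it replaces, this was 2.27%, 1.65% and 1.97% in APP/PS1 replicates 1 to 3 and 1.78%, 1.15% and 1.43% in WT replicates 1 to 3. The higher ratio of Psmb8 to Psmb5 in APP/PS1 replicates 1 and 3 came with low Psmb5 values there and, in replicate 1, with the highest Psmb8 value, and Psmb8 itself overlapped between the labels. Psmb9 had no row and was not analysed here. Of the 11 interferon and antigen presentation genes set beside them, 8 were tested, 0 passed over all genes, and 1 (H2-D1, a class I antigen-presenting molecule) was higher at an unadjusted p under 0.05, as were 2.85% of all genes. The 6 microglia markers, cells that carry inducible subunits, summed to 89.6 to 99.1 FPKM with the APP/PS1 label and 90.3 to 96.5 FPKM with the WT label. Of the 6, 3 were positive and 3 negative, and none was listed at 0.

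The 6 ATPases of the 19S base form a ring with each subunit present once, yet their mean levels ranged from 12.2 FPKM (Psmc2) to 49.98 FPKM (Psmc5), a ratio of 4.11. Psmc5 had 53.2, 50.05 and 49.7 FPKM in APP/PS1 replicates 1 to 3 and 47.5, 49.99 and 49.5 FPKM in WT replicates 1 to 3. Psmc2 had 12.9, 13.1 and 10.96 FPKM in APP/PS1 replicates 1 to 3 and 11.2, 11.8 and 12.98 FPKM in WT replicates 1 to 3. Psmc6, with a coefficient of variation of 2.11% over the 6 libraries, was the steadiest gene of the family, with 15.1, 14.9 and 15.03 FPKM in APP/PS1 replicates 1 to 3 and 14.8, 14.7 and 15.6 FPKM in WT replicates 1 to 3. The summed FPKM of the 6 ATPases averaged 155.4 ± 6.88 FPKM in the APP/PS1-labelled and 155.4 ± 5.13 FPKM in the WT-labelled libraries, with 2 log2 fold changes positive and 4 negative.

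Of the 11 non-ATPase subunits of the 19S cap, Psmd2, a scaffold that docks ubiquitin shuttle proteins, had the highest level, with 30.7, 30.6 and 29.3 FPKM in APP/PS1 replicates 1 to 3 and 31.98, 29.03 and 29.9 FPKM in WT replicates 1 to 3. Psmd13 had the lowest, with 6.90, 6.79 and 6.24 FPKM in APP/PS1 replicates 1 to 3 and 5.82, 6.86 and 6.79 FPKM in WT replicates 1 to 3. Psmd14, the enzyme that removes ubiquitin chains, had 16.5, 17.3 and 17.5 FPKM in APP/PS1 replicates 1 to 3 and 16.7, 15.8 and 17.9 FPKM in WT replicates 1 to 3, and the labels overlapped for all 3 genes. Psmd4, a ubiquitin receptor of the cap, had 14.7, 14.97 and 14.7 FPKM in APP/PS1 replicates 1 to 3 and 15.4, 13.96 and 14.7 FPKM in WT replicates 1 to 3. Psmd3, a subunit of the lid, was the other member with an unadjusted p under 0.05 and had 16.8, 14.4 and 14.02 FPKM in APP/PS1 replicates 1 to 3 and 16.9, 17.1 and 17.2 FPKM in WT replicates 1 to 3. Its WT-labelled libraries were nearly equal, and APP/PS1 replicate 1 lay just under them while replicates 2 and 3 were lower. The log2 fold change was -0.17 ± 0.07 (SE) by limma (unadjusted p = 0.0458, adjusted p = 0.741). It moved to -0.14 without WT replicate 3 and APP/PS1 replicate 2 (unadjusted p = 0.195, limma). Its unadjusted p stayed under 0.05 in 5 of 15 alternatives. Among these 11 subunits 6 log2 fold changes were positive and 5 negative, with a median of 0.01.

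Assembly factors were listed at lower levels than the constitutive subunits they assemble. The chaperones of the 19S base, Psmd5, Psmd10 and Psmd9, had mean levels of 5.42, 5.03 and 2.15 FPKM. Psmd5 had 4.68, 5.57 and 5.60 FPKM in APP/PS1 replicates 1 to 3 and 5.39, 5.26 and 6.04 FPKM in WT replicates 1 to 3. Psmd9 had 2.12, 1.75 and 2.07 FPKM in APP/PS1 replicates 1 to 3 and 2.05, 2.64 and 2.27 FPKM in WT replicates 1 to 3. All 3 had a negative log2 fold change (median -0.07), none passed the test, and their labels overlapped. Of the 20S assembly chaperones, Psmg2 had 8.34, 7.22 and 7.11 FPKM in APP/PS1 replicates 1 to 3 and 8.05, 7.78 and 8.96 FPKM in WT replicates 1 to 3. Psmg4 had 5.25, 8.18 and 5.76 FPKM in APP/PS1 replicates 1 to 3 and 5.90, 7.71 and 6.33 FPKM in WT replicates 1 to 3. APP/PS1 replicate 2 and WT replicate 2 were the high libraries for Psmg4, whose coefficient of variation of 17.9% was the largest among the 44 tested genes. Psmg3 was the lowest of the 4, with 1.48, 1.79 and 1.47 FPKM in APP/PS1 replicates 1 to 3 and 1.35, 1.91 and 1.86 FPKM in WT replicates 1 to 3. Psmg1 completed the class with a mean of 4.50 FPKM.

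Among the alternative activators, Psme3, which encodes the nuclear activator PA28 gamma, stood well above the interferon-inducible pair Psme1 and Psme2. Psme3 had 28.7, 27.4 and 28.4 FPKM in APP/PS1 replicates 1 to 3 and 29.6, 28.4 and 30.1 FPKM in WT replicates 1 to 3. Psme1 had 5.44, 4.28 and 5.20 FPKM in APP/PS1 replicates 1 to 3 and 5.15, 4.66 and 5.09 FPKM in WT replicates 1 to 3. Psme2 had 5.90, 5.09 and 4.52 FPKM in APP/PS1 replicates 1 to 3 and 5.62, 4.97 and 5.46 FPKM in WT replicates 1 to 3. The labels overlapped for all of them, and the 4 tested activators had negative log2 fold changes with a median of -0.04. Psme4, the nuclear activator PA200, averaged 8.80 ± 0.334 FPKM in the APP/PS1-labelled and 9.10 ± 0.452 FPKM in the WT-labelled libraries. Psme2b, a near-identical copy of Psme2 whose reads may be shared with it, lay under the filter with 0.757, 0.591 and 0.932 FPKM in APP/PS1 replicates 1 to 3 and 0.682, 0.705 and 0.666 FPKM in WT replicates 1 to 3. Psmf1, which encodes the inhibitor PI31, had 4.11, 3.94 and 3.67 FPKM in APP/PS1 replicates 1 to 3 and 4.23, 3.53 and 3.08 FPKM in WT replicates 1 to 3, and its labels overlapped. Psmc3ip, the row that is no proteasome gene, also lay under the filter with 0.595, 0.721 and 0.559 FPKM in APP/PS1 replicates 1 to 3 and 0.650, 0.494 and 0.952 FPKM in WT replicates 1 to 3.

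Set together, the members differed little between the labels. Of the 44 tested genes 0 passed an adjusted p of 0.05 by limma, where 0.0219% of all 13700 genes did. At an unadjusted p under 0.05, 2 members (4.55%) were called, both lower in the APP/PS1-labelled libraries, against 6.69% of all genes in either direction and 3.83% in the lower direction. In the higher direction 0 members were called, against 2.85% of all genes. In 2 of 44 genes every APP/PS1-labelled library lay under every WT-labelled one, against 6.51% of all genes, and in 0 every one lay above, against 5.38%. With so few members called or separated, none of these shares sets the family apart from the background. The log2 fold change was positive in 18 genes and negative in 26 (59.1%, against 50.4% of all genes). The members had a median of -0.01, where the median over all genes was -0.00089. The members' median turned to between 0.0039 and 0.0106 with array weights, without WT replicate 3, without APP/PS1 replicate 3 or without both libraries that App and Prnp contradict.

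**Figure D3:**
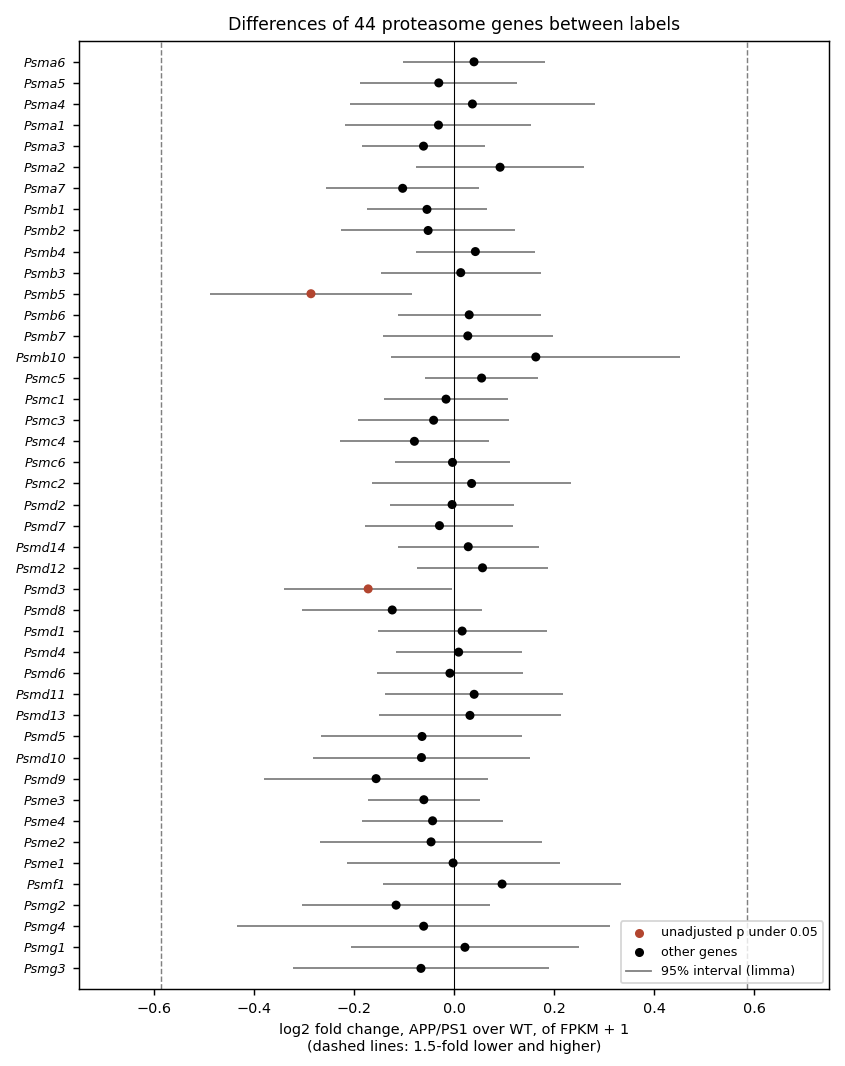
Log2 fold change, APP/PS1 over WT, of the 44 tested genes on the log2(FPKM + 1) scale, with 95% intervals from limma; dashed lines mark 1.5-fold. All intervals lie between the dashed lines, and those of Psmb5 and Psmd3, drawn with red points, lie wholly below 0.

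The intervals show how large a difference between the labelled groups could have gone unseen, on the log2(FPKM + 1) scale. They do not bound a difference by genotype, since App and Prnp did not follow the labels in some libraries. For low genes a given fold on this scale is a larger fold in FPKM. For all 44 genes the 95% interval of the log2 fold change lay within a 1.5-fold change either way, and for 31 it lay within 1.2-fold. These intervals are not adjusted for the number of genes. The widest was that of Psmg4, from -0.43 to 0.31. The narrowest was that of Psme3, from -0.17 to 0.05. The median size of the log2 fold change was 0.0427 over the members and 0.0658 over all tested genes. Among genes that reached 5 FPKM in 3 or more libraries it was 0.0417 for 40 members and 0.0575 for all 7384. The median coefficient of variation over the 6 libraries was 5.97% for these 40 members and 6.78% for all 7384 genes.

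The largest shared movement ran by library and not by label. In WT replicate 3, 35 of 44 genes lay above their mean over the 6 libraries. There 18 of 44 had their highest value, as did 22.6% of all tested genes. In APP/PS1 replicate 1, 31 of 44 lay above the mean and 12 of 44 had their highest value, as did 16.3% of all genes. In APP/PS1 replicate 3, 11 of 44 lay above the mean and 14 of 44 had their lowest value, as did 18.5% of all genes. WT replicate 2 held the lowest value of 13 of 44 genes, and of 18.2% of all genes. The share of all genes above their mean was not computed, so those counts have no background beside them. The median deviation of the members from their mean was 0.05, 0 and -0.06 log2 units in APP/PS1 replicates 1 to 3 and -0.02, -0.03 and 0.07 in WT replicates 1 to 3. Over all tested genes it was 0.003, 0.0045 and -0.0043 in APP/PS1 replicates 1 to 3 and -0.001, -0.0024 and 0.0143 in WT replicates 1 to 3. WT replicate 3 and APP/PS1 replicate 1, where the family stood high, and APP/PS1 replicate 3, where it stood low, are the libraries with high App and Prnp. The family medians of the libraries with high and with low App overlapped.

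**Figure D4:**
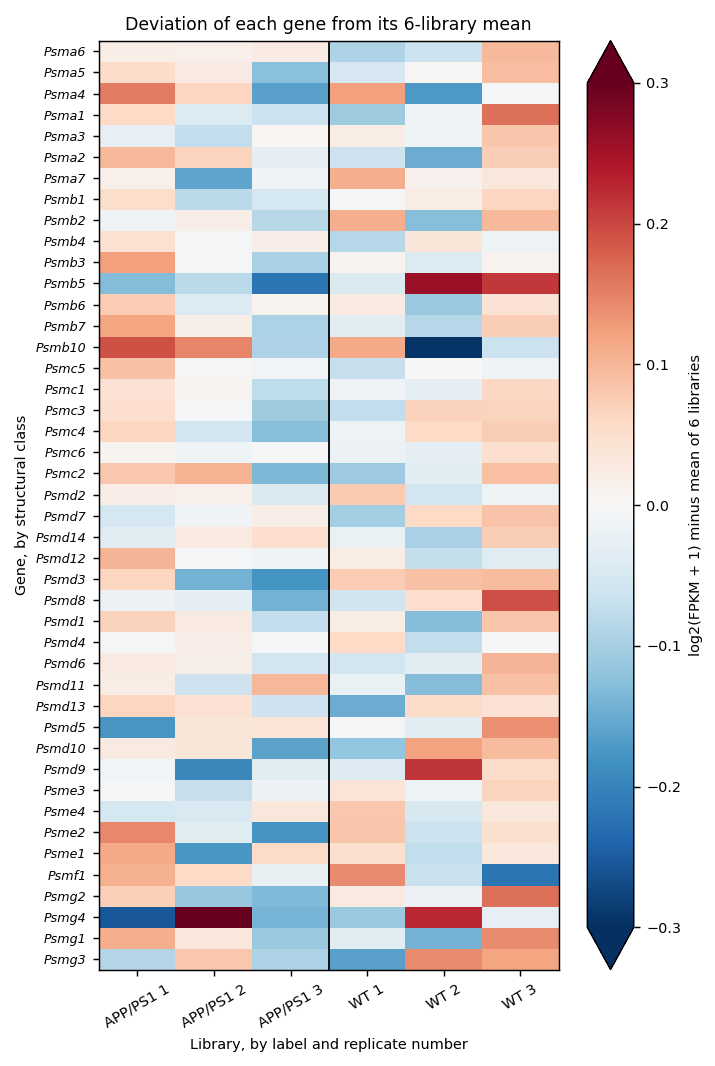
Deviation of log2(FPKM + 1) from the mean over 6 libraries for the 44 tested genes (rows, by structural class) in each library (columns, APP/PS1-labelled left of the line and WT-labelled right of it), red above and blue below the mean. The columns of WT replicate 3 and APP/PS1 replicate 1 are mostly red and that of APP/PS1 replicate 3 mostly blue. Psmb5 runs blue in all APP/PS1-labelled libraries and lies below its mean in WT replicate 1 too.

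Genes that work with the proteasome without bearing its prefix were read from a list of 27, of which 26 were tested. By limma 0 passed over all genes, and 1 of 26 was lower at an unadjusted p under 0.05, which is the background level, since 3.83% of all genes were. This gene was Ddi2, the protease that cleaves the Nfe2l1 protein into its active form, with 6.99, 7.14 and 7.57 FPKM in APP/PS1 replicates 1 to 3 and 8.59, 8.97 and 8.80 FPKM in WT replicates 1 to 3. The labels did not overlap, and the log2 fold change was -0.25 ± 0.06 (SE) by limma (unadjusted p = 0.00262, adjusted p = 0.485). It stayed between -0.28 and -0.23 over the 15 alternatives, with an unadjusted p under 0.05 in all 15 and an adjusted p between 0.348 and 0.9995. In the GRCm38.p6 gene table Ddi2 overlaps Rsc1a1, and reads of the pair cannot be told apart without strand. Nfe2l1 itself had 12.5, 13.2 and 15.1 FPKM in APP/PS1 replicates 1 to 3 and 14.1, 13.7 and 13.8 FPKM in WT replicates 1 to 3, with overlapping labels. Sem1, a small subunit of the 19S lid named outside the Psm series, had 5.70, 5.88 and 5.98 FPKM in APP/PS1 replicates 1 to 3 and 6.23, 6.34 and 6.74 FPKM in WT replicates 1 to 3. Its labels did not overlap, with an unadjusted p = 0.0854 and a log2 fold change of -0.12 by limma (adjusted p = 0.806). Pomp, the maturation factor of the core particle, had 8.03, 8.08 and 4.98 FPKM in APP/PS1 replicates 1 to 3 and 8.60, 5.82 and 6.30 FPKM in WT replicates 1 to 3. Ubb, a polyubiquitin gene, had 197.2, 208.4 and 187.8 FPKM in APP/PS1 replicates 1 to 3 and 208.2, 215.4 and 217.1 FPKM in WT replicates 1 to 3, and APP/PS1 replicate 2 lay within the WT-labelled range. The partner genes next in order of p all had overlapping labels. Txnl1, a thioredoxin-like protein bound to the proteasome, had 19.04, 19.002 and 16.6 FPKM in APP/PS1 replicates 1 to 3 and 15.9, 15.7 and 17.9 FPKM in WT replicates 1 to 3. Uchl5, a deubiquitinase of the 19S cap, had 7.25, 5.79 and 5.98 FPKM in APP/PS1 replicates 1 to 3 and 5.79, 5.87 and 5.54 FPKM in WT replicates 1 to 3. Bag6, a chaperone that hands misfolded proteins on for degradation, had 23.4, 23.4 and 23.1 FPKM in APP/PS1 replicates 1 to 3 and 23.3, 25.4 and 25.01 FPKM in WT replicates 1 to 3. APP/PS1 replicate 1 was the high library for Uchl5, and WT replicates 2 and 3 were high for Bag6. Rps27a, which encodes ubiquitin fused to a ribosomal protein, had 33.3, 39.1 and 33.5 FPKM in APP/PS1 replicates 1 to 3 and 33.8, 31.8 and 33.1 FPKM in WT replicates 1 to 3, and APP/PS1 replicate 2 stood high. Over the list 11 log2 fold changes were positive and 15 negative, with a median of -0.01.

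Circular RNAs, made by joining the ends of exons of a transcript, were listed from 2 proteasome genes among the 257 circles given with coordinates. The remaining 1989 of 2246 carry only a database number and were not assigned to genes here. The Psma3 circle, at chr12:70990484-70993080 on the plus strand as the files give it, had 20, 13 and 14 reads in APP/PS1 replicates 1 to 3 and 7, 14 and 7 reads in WT replicates 1 to 3. Its level averaged 820.3 ± 174.1 CPM (counts scaled to the circRNA total of each library) in the APP/PS1-labelled and 551.9 ± 211.6 CPM in the WT-labelled libraries (SD, n = 3 each). The labels overlapped, and the log2 fold change was 0.57 by edgeR (unadjusted p = 0.229, adjusted p = 0.831). With single libraries left out it ran from 0.34, without WT replicate 3, to 0.92, without WT replicate 2. The Psmd2 circle, at chr16:20656542-20657609 on the plus strand, had 4, 3 and 1 reads in APP/PS1 replicates 1 to 3 and 2, 3 and 6 reads in WT replicates 1 to 3, with a log2 fold change of -0.58 (unadjusted p = 0.554, adjusted p = 0.890). It ran from -0.94 without APP/PS1 replicate 1 to -0.15 without WT replicate 3. Of 2132 circRNAs tested, 0.0469% passed an adjusted p of 0.05 and 5.3% an unadjusted p of 0.05. The linear Psma3 and Psmd2 mRNAs had log2 fold changes of -0.06 and -0.004 and adjusted p-values of 0.894 and 0.994 by limma. The build mm9 is listed in the submitters' processing notes, but 254 of the 257 circles lay inside a gene of the GRCm38.p6 table, from which the host genes were taken.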

How the data were processed

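Total RNA from hippocampus was sequenced in 6 libraries, built with an Illumina TruSeq kit per the labels' protocols. The gene values were read as FPKM made and deposited by the authors. No header gives the unit, which was inferred from the decimals, the totals and the tools. FastQC, HISAT2, StringTie and the build mm9 appear in the submitters' processing notes, without roles. The circRNA values deposited by the authors are whole-number read counts, from 13998 to 19584 per library. A floor of 3 reads is 153.2 to 214.3 CPM, and floors cover counting error only. For circRNA detection, no tool is named in the notes.

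Genes reaching 1 FPKM in 3 or more libraries entered limma 3.58.1 (R 4.3.3, trend and robust settings) on log2(FPKM + 1), with Benjamini-Hochberg adjustment over all 13700. The circRNA counts reaching 2 reads in 3 or more libraries entered edgeR 4.0.16 (quasi-likelihood, TMM factors), a test added after the files were seen. No library repeated another by chi-square of circRNA counts (1.99 to 2.33 per degree of freedom).

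The members, lists and tests were chosen with earlier results of these data known, and no list supports a direction. Genes were named by a rule: members with an unadjusted p under 0.05 or separated labels, the highest and lowest of each class, all catalytic genes, those under the filter, Nfe2l1, Pomp and Sem1, and 6 other partner genes by p. Psmd4, Psmd14, Psmc6, Psma3, Psme1, Psme2, Psme4, Psmg1, Psmg4, Psmd10, H2-D1 and H2-K1 were added for their role or after their values were seen. Beside the 4 oligodendrocyte markers given, 1 more had been chosen; it was left out of the list and its sums and is not reported here.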

Additional observations from a re-analysis of the deposited data

How the results depend on the processing

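The count of 0 proteasome genes past an adjusted p of 0.05 held under all 15 alternatives by limma, and 0 were higher at an unadjusted p under 0.05 in each. The count of 2 lower at an unadjusted p under 0.05 became 1 with quantile scaling, without trend and robust settings, with array weights and with the replicate block, 0 in the 4 libraries without WT replicate 3 and APP/PS1 replicate 2, and 1 to 2 when single libraries were left out. Psmb5 and Psmd3 kept a negative sign in all 15. Psmd2, near 0, turned positive with quantile scaling (0.0045), array weights (0.0081), without WT replicate 1 (0.0341) and without APP/PS1 replicate 3 (0.0165), and ran from -0.0336 to 0.0341 with single libraries left out. Psmb6 and Psmb7 turned negative without WT replicate 2 (-0.018 and -0.008) and without APP/PS1 replicate 1 (-4e-04 and -0.025), and reached up to 0.0589 and 0.0816 with other single libraries left out. The replicate numbers did not pair the libraries: same-numbered correlations of deviations were 0.01, -0.056 and -0.094, so the block is given here alone.

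Over all genes, 1 higher and 2 lower passed an adjusted p of 0.05. These became 2 higher with array weights, 0 lower with the replicate block, and 9 higher and 14 lower in the 4 libraries. Single libraries left out gave 1 to 8 higher and 1 to 22 lower. At an unadjusted p under 0.05, 391 higher and 525 lower became 172 and 299 with at least 5 FPKM, where fewer genes were tested, and 208 to 608 higher and 345 to 625 lower with single libraries left out. The 1 circRNA past an adjusted p of 0.05 became 0 in the 4 libraries, where 57 had an unadjusted p under 0.05 against 113, and 0 to 1 with single libraries left out. Where not stated, the cause was not tested. Depth behind FPKM is unknown, and 3 libraries a label limit every interval.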
